A study of Mus musculus with 39 samples.

Results

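Embryonic day 6.5 (E6.5) epiblasts that lacked *Stat3* were compared with wild-type (WT) epiblasts of the same stage. The comparison took 17 of the 39 libraries of the series, namely all those labelled E6.5, with 8 *Stat3* null and 9 WT. Of the 39 libraries, 35 were made from epiblasts and the others from epiblast stem cell lines. Each library held the RNA of 1 whole epiblast, the layer of the mouse embryo from which the fetus arises. All embryos came from matings of *Stat3* heterozygotes on the outbred CD1 background, so null and WT differed by the absence or presence of the gene in every tissue, not in the epiblast alone. In the null allele a neomycin resistance cassette replaces exons 20 to 22. PCR of extraembryonic tissue gave the genotype of each embryo. Epiblasts were freed of the other tissues by manual dissection. RNA was isolated with the PicoPure kit, and libraries were made with a SMARTer stranded kit for total RNA. In bulk samples of this kind, fewer cells of a type and less RNA per cell cannot be told apart. Replicates are separate embryos, but the labels give no litter or dissection day.

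STAT3 is a transcription factor that JAK kinases activate by phosphorylation when cytokines of the LIF and IL-6 family bind the shared receptor gp130. In embryonic stem cells it sustains naive pluripotency, and its direct targets include *Socs3*, which shuts the same receptor off. After implantation the epiblast passes from naive to primed pluripotency under FGF and Nodal signalling. The primitive streak then forms on its posterior side under Nodal, BMP and Wnt signals, with *T* (Brachyury), *Eomes* and *Mixl1* among the first genes to be switched on.

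The null allele defines the groups, so the piece of mRNA that it lacks is shown first. Exons 20 to 22 of the reference transcript *Stat3*-201 lie at chr11:100889886-100893804 on the minus strand (GRCm38, GENCODE M21) and hold 393 of its 2927 bases (13.4%), bases 1897 to 2289. They encode part of the SH2 domain and the tyrosine that JAK kinases phosphorylate, whose codon is in capitals in exon 22.
Stat3-201, exon 20 (140 bases): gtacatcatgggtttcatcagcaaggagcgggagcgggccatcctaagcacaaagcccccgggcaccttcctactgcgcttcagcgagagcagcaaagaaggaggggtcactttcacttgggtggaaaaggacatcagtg
Stat3-201, exon 21 (210 bases): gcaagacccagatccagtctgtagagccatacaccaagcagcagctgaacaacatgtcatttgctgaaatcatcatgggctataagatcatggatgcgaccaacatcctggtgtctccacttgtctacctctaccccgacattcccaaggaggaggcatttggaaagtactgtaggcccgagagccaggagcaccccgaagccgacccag
Stat3-201, exon 22 (43 bases): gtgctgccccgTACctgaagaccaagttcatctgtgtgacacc
Reads on the other 21 of the 24 exons can still be counted on *Stat3* in null embryos.

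*Stat3* (ENSMUSG00000004040.16, chr11:100885098-100939540) was counted at 1.41 to 7.998 CPM (counts scaled to a common library total, with TMM factors) in the 8 null libraries, with a median of 3.92. In the 9 WT libraries it was counted at 5.55 to 28.7 CPM, with a median of 12.2. The ranges overlapped, with 5 null libraries below every WT library and all 8 below the WT median. On log2 CPM the mean was 1.89 ± 0.94 (SD, n = 8) in null and 3.55 ± 0.73 (SD, n = 9) in WT epiblasts, a 3.16-fold lower level (two-sided exact permutation test over 24310 regroupings, p = 0.000864, smallest possible p 4.11e-05). Null 1 had the highest null value, and without it the log2 difference was -1.82 (exact permutation test, 7 against 9, p = 0.000524). It was -2.0 within replicates 1 to 3 of both genotypes (exact permutation p = 0.1, the smallest possible with 3 against 3) and -1.51 within the other replicates (exact permutation test, 5 against 6, p = 0.0152). Genotype and the level of the targeted gene thus went the same way in both sets of libraries.

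**Figure D1:**
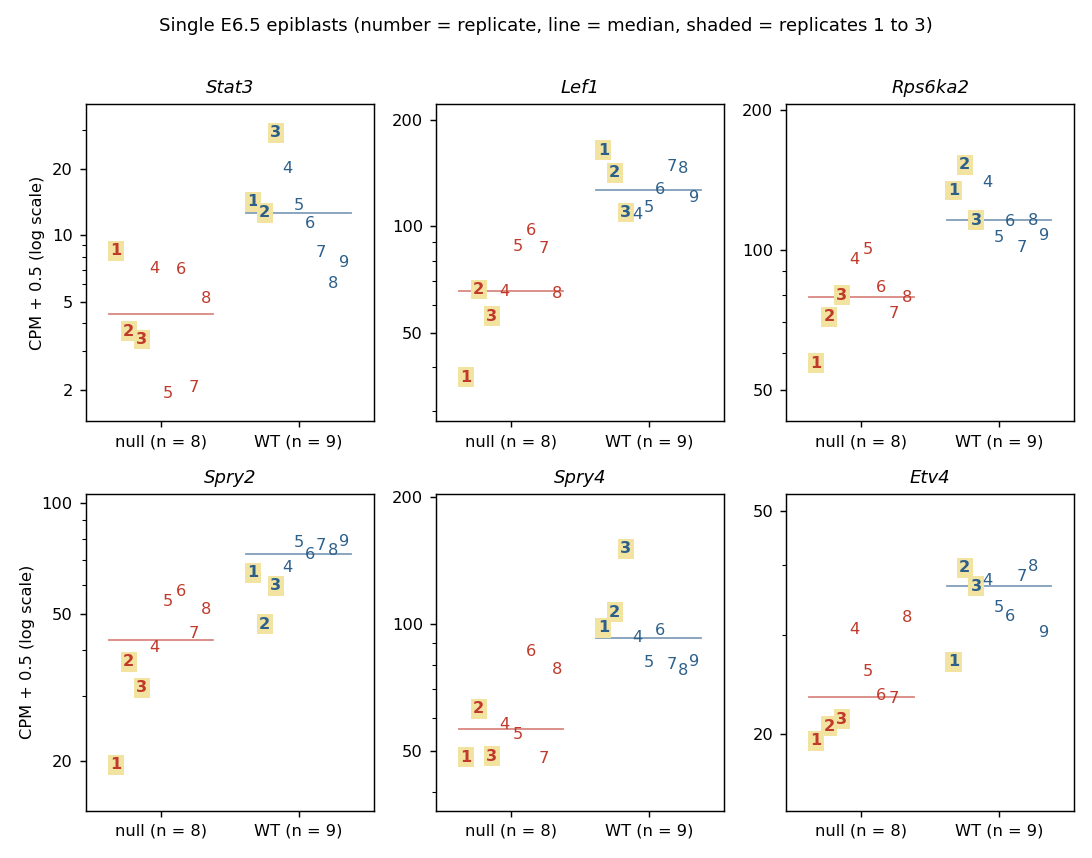
CPM (plus 0.5, log scale) of *Stat3*, *Lef1*, *Rps6ka2*, *Spry2*, *Spry4* and *Etv4* in each E6.5 library. Each number is the replicate number of 1 epiblast, shading marks replicates 1 to 3, and lines are group medians. All 8 null libraries lie below all 9 WT libraries for *Lef1* and *Rps6ka2*, whereas the groups overlap for the other genes.

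Several libraries stood apart. Replicates 1 to 3 of both genotypes were sequenced deeper (43606327 to 79013960 counts) than the others (27913392 to 36540246), but the deeper libraries held fewer genes with a count (15171 to 19380 against 20338 to 22310) and had the 6 lowest sample quality weights, which fall with a library's distance from its group (0.0959 to 0.465 against 1.34 to 4.003). Markers of extraembryonic ectoderm, the tissue that abuts the epiblast, summed to 1241.5 CPM in null 1 and to 25.8 to 112 CPM in the other 16 libraries. Of these 12 markers 1 was at 0 in null 1 and 1 to 9 were at 0 in each of the others. Markers of visceral endoderm, the layer that wraps the epiblast, summed to 7557 CPM in null 3, 6369 in WT 3, 5184 in null 4 and 4631 in null 8. The other 13 libraries lay between 100.5 CPM in WT 7 and 1747 CPM in WT 1, with at most 3 of the 17 markers at 0. All 11 epiblast markers had counts in all 17 libraries and summed to 4064 CPM in null 1, the lowest, and 8483 CPM in WT 2, the highest. Maternal and blood markers summed to at most 15.2 CPM. No 2 libraries had identical values, and the correlation of any pair over the 500 most variable genes was at most 0.964. The number of genes with a count, the mitochondrial share (4.55% to 6.66%) and the share of the noncoding gene *Gm26917* (7.34% to 11.4%) were compared between genotypes by two-sided exact permutation tests, and none passed after adjustment over the 3 measures (adjusted p = 0.273, 0.273 and 0.115).

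In a principal component analysis of the 500 most variable genes, the first component held 39.99% of the variance and the second 18.7%. The 4 libraries at the low end of the first component, null 3, WT 3, null 4 and null 8, were the 4 with the highest visceral endoderm sums. All 17 visceral endoderm markers were among the 500 genes, and *Afp*, *Apob*, *Cubn* and *Ttr*, which encode carriers and receptors of this absorptive tissue, were among the 25 genes with the most negative loadings. At the other end lay WT 5 to WT 9 (13.6 to 16.5), with *T* and several histone genes among the leading positive loadings. Of 12 primitive streak genes 2 were among the 25 most positive. On the second component null 1 lay alone at 32.5, and 4 of the 12 extraembryonic ectoderm markers were among its top 25 genes.

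**Figure D2:**
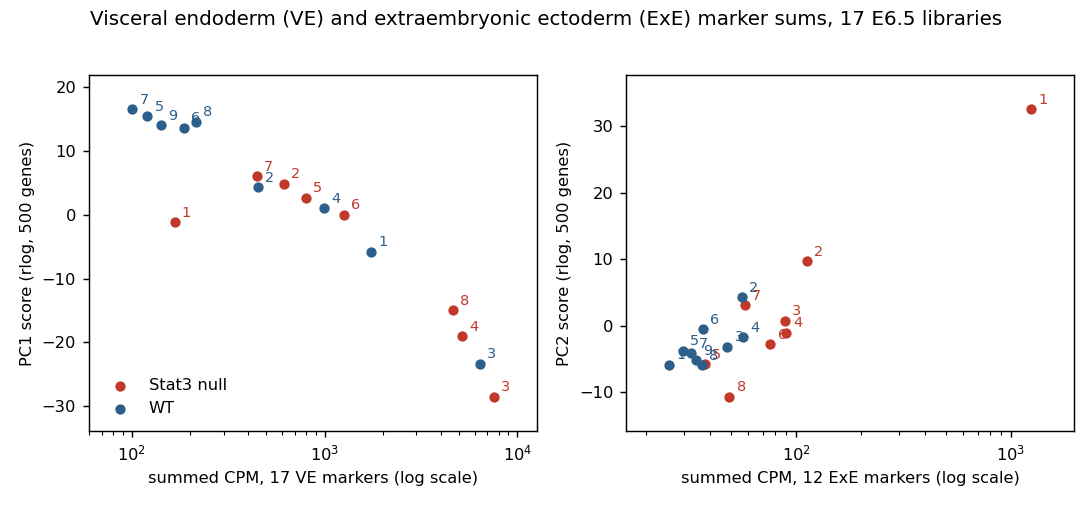
Left, summed CPM of 17 visceral endoderm (VE) markers (log scale) against the first principal component in the 17 E6.5 libraries. Right, summed CPM of 12 extraembryonic ectoderm (ExE) markers (log scale) against the second. Each point is 1 epiblast with its replicate number, red for null and blue for WT. Libraries with high VE sums lie low on the first component whatever their genotype, and null 1 stands alone at the upper right of the right panel.

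All 17 visceral endoderm markers had a higher fitted value in null than in WT epiblasts (median log2 fold change 1.18), 1 of them (*Sox17*) at an unadjusted p under 0.05, and without null 1 3 of them (median 1.38). Within replicates 4 and up 16 of the 17 were higher at that level (median 3.14), and within replicates 1 to 3 7 were higher and 10 lower (median -0.07). Of the 12 extraembryonic ectoderm markers 10 were tested and all 10 were higher (median 3.35), 8 at an unadjusted p under 0.05, or 2 without null 1 (median 1.75). Of 5 markers of anterior visceral endoderm 4 were higher and 1 lower over all libraries, none at that level, and all 5 were higher at that level within replicates 4 and up. Of 11 maternal and blood markers 2 were tested, and neither reached that level. Over all genes tested 4.76% were higher at that level, 3.93% without null 1 and 7.81% within replicates 4 and up. The part of these tissues in the results that follow was not tested. Values are given for all 17 libraries and, for many results, also without null 1 or with the visceral endoderm sum as a covariate. Many are also given without 5 libraries. These were null 3, WT 3, null 4 and null 8, with the highest visceral endoderm sums, and null 1, with the highest extraembryonic ectoderm sum. More null than WT libraries were thus left out.

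Among 17095 genes tested with edgeR's quasi-likelihood test, no gene was called higher (0% of genes tested) or lower (0%) in null epiblasts at an absolute log2 fold change over 1 and an adjusted p under 0.05. At an unadjusted p under 0.05 there were 1414 genes (8.27%), of which 814 were higher in the null (4.76%) and 600 lower (3.51%). The median log2 fold change of all genes tested was -0.01. Without null 1 again no gene was called, and of 17393 genes 684 were higher (3.93%) and 609 lower (3.5%) at an unadjusted p under 0.05. DESeq2, the tool that the study used, called 23 of 30004 genes higher (0.0767%) and 5 lower (0.0167%). Without null 1 it called 21 of 29787 genes higher (0.0705%) and 11 lower (0.0369%). These lists shared 13 genes, 46.4% of the first and 40.6% of the second. In counts simulated from these libraries, DESeq2 called 75 of 100 genes changed 4-fold and 53 of 100 changed 2.5-fold, with 28 false calls. On the same counts edgeR called 62 and 44, with 1 false call. Within replicates 4 and up edgeR called 13 of 17795 genes higher (0.0731%) and 3 lower (0.0169%).

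Genes of FGF and ERK signalling had lower values in null epiblasts more often than not. The list of 16 ligands, receptors and feedback genes had 13 genes lower and 3 higher, with a median log2 fold change of -0.26. At an unadjusted p under 0.05, 8 of the 16 were lower, against 3.51% of all genes tested, and 1 was higher. The 8 were *Fgf4*, *Spry2*, *Spry4*, *Spred2*, *Dusp4*, *Dusp6*, *Etv4* and *Etv5*. The count of lower genes at that level was 8 without null 1 and 8 with the visceral endoderm covariate. It was 5 without the 5 libraries, 6 within replicates 1 to 3 and 6 within the other replicates. Of all genes tested, 3.5% were lower at that level without null 1 and 5.69% within the other replicates. These were 604 of 17095 with the covariate, 567 of 18574 without the 5 libraries and 417 of 16492 within replicates 1 to 3. None of the 16 was called in any of these fits.

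*Spry2* (chr14:105891947-105896819), which encodes a Sprouty inhibitor induced by receptor tyrosine kinases, was counted at 18.97, 41.9 and 57.1 CPM (lowest, median and highest) in null epiblasts. In WT epiblasts it was counted at 46.4, 72.1 and 78.0 CPM. All 8 null libraries lay below the WT median, and 8 of the 9 WT libraries lay above every null library. In the fit *Spry2* had a log2 fold change of -0.72 ± 0.17 (SE, edgeR adjusted p = 0.334, with 0.00216 to 0.952 over the alternatives), -0.61 ± 0.14 without null 1 and -0.59 ± 0.09 within replicates 4 and up, where its adjusted p was 0.0246 (edgeR).

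*Etv4*, an ETS transcription factor induced by FGF, was counted at 18.9, 22.7 and 31.8 CPM in null and 26.4, 36.2 and 39.2 CPM in WT epiblasts. *Spry4*, a second Sprouty gene, was counted at 47.6, 55.8 and 85.5 CPM in null and 77.2, 92.4 and 150.5 CPM in WT epiblasts. In both genes 6 null libraries lay below every WT library, and all 8 below the WT median. On the log2 scale they differed by -0.52 ± 0.13 and -0.67 ± 0.15 (edgeR adjusted p = 0.334 and 0.333), and -0.47 ± 0.13 and -0.63 ± 0.15 without null 1. DESeq2 gave adjusted p = 0.0138 for *Etv4*, 0.0139 for *Spry4* and 0.0258 for *Spry2*, the 3 list members that passed 0.05 there, within ranges that reach 1.0, 0.943 and 0.952 over the alternatives. At any fold DESeq2 had 46 of all genes tested higher (0.153%) and 32 lower (0.107%) at an adjusted p under 0.05. *Etv4* starts at chr11:101769742, close to *Stat3*, so alleles linked to the null locus and genotype cannot be told apart for it.

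*Dusp6*, the cytoplasmic ERK phosphatase, had 36.9, 65.3 and 88.3 CPM in null and 73.2, 93.1 and 108 CPM in WT epiblasts. This is a log2 fold change of -0.50 ± 0.13, against -0.42 ± 0.11 without null 1 and -0.31 ± 0.12 without the 5 libraries. *Dusp4*, its nuclear relative, ranged from 1.45 CPM in null 2 to 50.4 in null 3 and from 35.1 to 114 CPM in WT epiblasts (log2 fold change -1.15 ± 0.43). *Etv5* had -0.30 ± 0.11 and *Spred2*, an inhibitor of Ras signalling, -0.35 ± 0.11. For *Dusp6*, *Dusp4* and *Etv5* 5 of 8 null libraries lay below every WT library, and for *Spred2* 3 did.

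The ligand *Fgf4* did not follow this pattern. Its CPM was 63.2, 25.2, 94.6 and 25.5 in WT 1 to WT 4 and 5.15 to 12.9 in WT 5 to WT 9, while null libraries ranged from 1.85 to 15.8. The log2 fold change of -1.54 ± 0.57 therefore rested on WT 1 to WT 4, and within replicates 4 and up it was 0.03 ± 0.36. The ligands *Fgf5* and *Fgf8* had -0.03 ± 0.23 and -0.04 ± 0.45. The receptor *Fgfr2*, which extraembryonic ectoderm also expresses, was the 1 member with a higher value at an unadjusted p under 0.05. It reached 209 CPM in null 1, and its log2 fold change of 2.32 ± 0.63 was 0.92 ± 0.32 without that library.

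**Figure D3:**
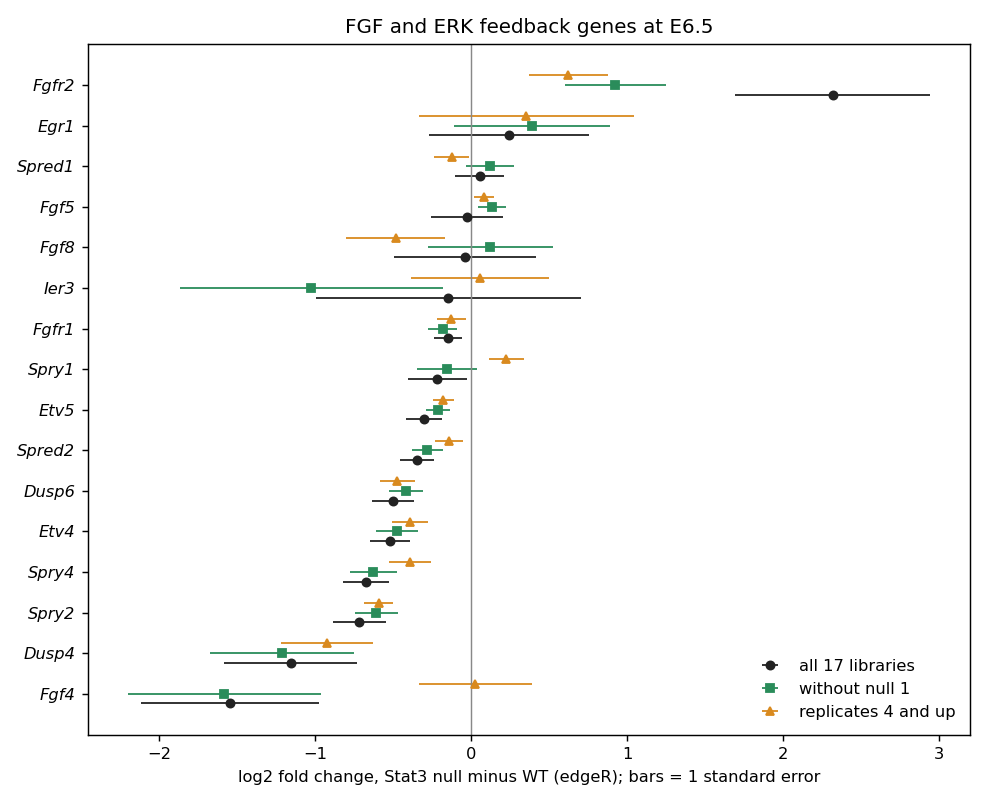
Log2 fold changes (null minus WT, edgeR) of the 16 FGF and ERK feedback genes in all 17 libraries (black circles), without null 1 (green squares) and within replicates 4 and up (orange triangles). Bars are 1 standard error. *Spry2*, *Spry4*, *Dusp4*, *Dusp6*, *Etv4*, *Etv5* and *Spred2* lie below 0 in all 3 fits, *Fgf4* lies near 0 within replicates 4 and up, and *Fgfr2* is largest with null 1 included.

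*Lef1* (chr3:131110471-131224356), a DNA-binding partner of beta-catenin and itself a Wnt target, had the smallest p of all genes. It was counted at 37.0, 65.3 and 96.7 CPM in null and 107, 126 and 163 CPM in WT epiblasts, so the groups did not overlap. The fitted log2 fold change was -0.90 ± 0.15 (edgeR adjusted p = 0.141, with 1.20e-06 to 0.943 over the alternatives). Without null 1, which had the lowest value, it was -0.81 ± 0.12, within replicates 4 and up -0.67 ± 0.12 and without the 5 libraries -0.66 ± 0.12. In DESeq2 its adjusted p was 0.000241, at a fold below the threshold for a call. Across all genes tested, 9 had every null library below every WT library (0.0526%) and 1 had every null library above (0.00585%).

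The 9 were *Lef1*, *Rps6ka2*, *Tgif1*, *Mmp25*, *Igdcc3*, *Crip2*, *Arhgef4*, *Zfp729a* and *Grm6*, and the 1 was *Aldh3a2*. *Rps6ka2* (chr17:7170115-7303315), a ribosomal S6 kinase that ERK activates, was counted at 56.6, 78.9 and 99.7 CPM in null and 101, 115 and 152 CPM in WT epiblasts. Its log2 fold change of -0.60 ± 0.11 had an edgeR adjusted p of 0.209 (0.000226 to 0.943 over the alternatives) and was -0.54 ± 0.10 without null 1. *Tgif1*, a homeodomain repressor that limits Nodal and retinoid responses, had 59.0, 99.7 and 107 CPM in null and 108, 124 and 161 CPM in WT epiblasts (log2 fold change -0.51 ± 0.13, with -0.44 ± 0.12 without null 1 and -0.18 ± 0.06 within replicates 4 and up). The groups thus kept apart in *Tgif1* by a margin smaller than the spread within either.

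*Igdcc3*, a membrane protein of the immunoglobulin superfamily, was at 0 in null 3 and between 3.95 and 8.41 CPM in the other null libraries, against 12.002, 18.4 and 28.7 CPM in WT epiblasts. It had a log2 fold change of -1.77 ± 0.52 (-1.73 ± 0.55 without null 1) and was called by edgeR within replicates 4 and up (-1.37 ± 0.18, adjusted p = 0.0102, with 2.06e-05 to 1.0 over all alternatives). *Mmp25*, a membrane-anchored matrix metalloproteinase, had 8.54, 29.4 and 34.1 CPM in null and 37.8, 44.0 and 95.8 CPM in WT epiblasts. The log2 fold change of -1.12 ± 0.26 was -1.09 ± 0.28 without null 1 and -0.45 ± 0.10 within replicates 4 and up. *Mmp25* was called by DESeq2 with and without null 1 (adjusted p = 0.0155 and 0.0334).

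The list of Wnt response genes was divided. Of 10 tested of 12, 5 were higher and 5 lower (median 0.05), and *Lef1* was the 1 with an unadjusted p under 0.05. Without null 1 5 of 11 were higher and 6 lower (median -0.07), and without the 5 libraries 3 were higher and 8 lower (median -0.37). *Axin2*, a negative regulator that Wnt signalling induces, varied more among libraries than between genotypes. It was counted at 99.2 to 122 CPM in WT 5 to WT 9 and at 44.8 to 51.9 CPM in WT 1 to WT 4. Null libraries lay between 18.3 and 46.3 CPM except null 2, at 155. The log2 fold change was -0.64 ± 0.35 over all libraries, -0.52 ± 0.33 without null 1 and -1.30 ± 0.20 within replicates 4 and up (edgeR adjusted p = 0.0333, with 0.0167 to 1.0 over the alternatives), where it was called.

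Primitive streak genes showed the same split of libraries. *T* was counted at 22.1, 37.7, 44.2, 56.7 and 39.8 CPM in WT 5 to WT 9, and at 0, 1.30, 0 and 3.87 CPM in WT 1 to WT 4. Of the null libraries, null 2 had 29.5 CPM and the others 0 to 4.60. Both genotypes thus held libraries with and without *T*, 1 of 8 null and 5 of 9 WT libraries at over 20 CPM.

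*Mesp1*, a gene of nascent mesoderm, had counts in 1 null library (null 6, 2.04 CPM) and in WT 5 to WT 9 (1.67 to 25.4 CPM). *Wnt8a* was at 6.99 to 12.9 CPM in WT 5 to WT 9 and at 11.8 CPM in null 2, and at 0 to 1.60 CPM in the other 11 libraries. *Mixl1* was at 25.6 to 95.3 CPM in WT 5 to WT 9, and at 0 to 21.8 CPM in the other 12. *Eomes* exceeded 290 CPM in WT 5 to WT 9, null 2 (519 CPM) and null 1 (315 CPM), and *Eomes* is also a gene of the extraembryonic ectoderm that null 1 carries. For these genes WT 1 to WT 4 lay within or below the range of the null libraries.

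Over all libraries the list of 12 streak genes had 10 tested, 6 lower and 4 higher, with a median of -0.32 and 1 lower gene (*Zic2*) at an unadjusted p under 0.05, or none without null 1 (median -0.19). Within replicates 4 and up, which hold WT 5 to WT 9 and not null 2, 9 of the 10 were lower, 5 at an unadjusted p under 0.05 where 5.69% of all genes were lower and 7.81% higher. In those same replicates 16 of the 17 visceral endoderm markers were higher in null epiblasts at that level. Within replicates 1 to 3 7 were higher and 2 lower of 9 tested, and with the visceral endoderm covariate 7 were higher and 3 lower of 10 (median 0.29). The direction of the list thus differed between these fits. *T* had a log2 fold change of -1.95 ± 1.27 in all libraries, -1.90 ± 1.37 without null 1, -3.66 ± 0.67 within replicates 4 and up and 4.66 ± 2.87 within replicates 1 to 3, and of 1.46 with the covariate. *Snai1*, a repressor of epithelial genes, had -1.40 ± 0.55, -1.60 ± 0.57, -2.10 ± 0.53 and 0.56 ± 1.21 in the same order. *Wnt3*, the ligand needed for streak formation, had 0.31 ± 0.76 in all libraries and -0.93 ± 0.36 within replicates 4 and up.

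**Figure D4:**
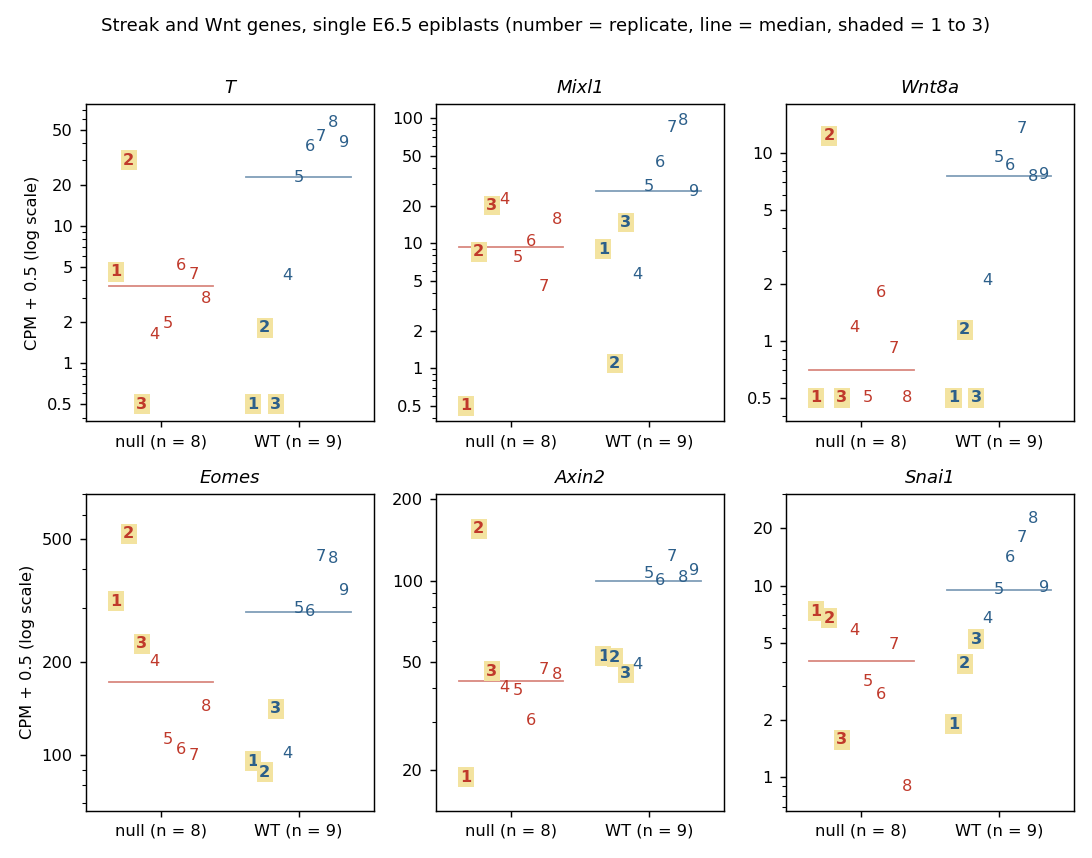
CPM (plus 0.5, log scale) of *T*, *Mixl1*, *Wnt8a*, *Eomes*, *Axin2* and *Snai1* in each E6.5 library, with numbers for replicates, shading for replicates 1 to 3 and lines for group medians. WT 5 to WT 9 lie at the top of the WT column in each panel, WT 1 to WT 4 lie below them, near or among the null libraries, and null 2 lies with WT 5 to WT 9 for *T*, *Wnt8a*, *Eomes* and *Axin2*.

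*Zic2*, a zinc finger gene of the epiblast and later neural plate, behaved otherwise. It was counted at 62.7, 164 and 191 CPM in null and at 88.3, 229 and 244 CPM in WT epiblasts, and 8 of 9 WT libraries lay above every null library, with WT 3 the exception. In the fit its log2 fold change was -0.50 ± 0.20, without null 1 -0.43 ± 0.21 and within replicates 4 and up -0.37 ± 0.06.

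Nodal, the signal that patterns the epiblast and sets up the streak, overlapped between the groups (*Nodal*, 7.77, 19.6 and 49.6 CPM in null and 11.7, 19.8 and 31.0 CPM in WT epiblasts). Of 19 genes of its pathway 11 were higher and 8 lower (median 0.03), and 3, among them *Furin* and *Smad3*, were higher at an unadjusted p under 0.05, where 4.76% of all genes were. Without null 1 9 were higher and 10 lower (median -0.01).

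Of 13 BMP pathway genes 9 were higher and 4 lower (median 0.61). At an unadjusted p under 0.05, 3 of them were higher, where 4.76% of all genes were. Without null 1 the same numbers were higher and lower (median 0.50), 2 higher at that level, where 3.93% of all genes were. *Id1*, a target of BMP signalling, was at 11.3 to 15.0 CPM in null 4 to null 8 and at 2.39 to 6.39 CPM in WT 4 to WT 9, and was called within those replicates (log2 fold change 1.51 ± 0.21, edgeR adjusted p = 0.0148, where the alternatives gave 0.0148 to 1.0). In replicates 1 to 3 null and WT values were mixed (3.71 to 26.2 against 10.4 to 31.9 CPM), and the log2 fold change was 0.51 ± 0.47 over all libraries and 0.66 ± 0.45 without null 1. *Id2* and *Msx2*, other BMP targets, had 2.06 ± 0.67 and 1.74 ± 0.67, and without null 1, where *Id2* was at 139 CPM, *Id2* had 1.0 ± 0.49 and *Msx2* 1.85 ± 0.68. Within replicates 4 and up visceral endoderm markers were higher in null epiblasts too, and their part in the *Id1* result was not tested.

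The receptors, kinases and targets of the LIF pathway were measured next. Of 12 ligands and receptors 8 were tested, 6 higher and 2 lower. *Ctf1* and *Il6st* were higher at an unadjusted p under 0.05, where 4.76% of all genes were. *Il6st*, which encodes gp130, had 23.4, 26.7 and 45.4 CPM in null and 18.1, 24.5 and 30.4 CPM in WT epiblasts (log2 fold change 0.33 ± 0.15, or 0.26 ± 0.15 without null 1). *Lifr*, the LIF receptor, had -0.27 ± 0.14. Of 7 STAT genes only *Stat3* had an unadjusted p under 0.05. The kinases *Jak1* and *Tyk2* had log2 fold changes of 0.34 ± 0.23 and 0.02 ± 0.26.

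*Jak2* (chr19:29251828-29313080) stood out among the 4 JAK kinases. It was counted at 10.9, 9.33, 30.2, 23.02, 2.41, 5.64, 4.32 and 15.2 CPM in null 1 to null 8 and at 1.47 to 5.53 CPM in WT epiblasts, where WT 3 and WT 4 were highest. Of the null libraries 6 lay above every WT library, and the 3 highest were null 3, null 4 and null 8, those with the highest visceral endoderm sums. The log2 fold change of 2.01 ± 0.45 (edgeR adjusted p = 0.333, DESeq2 0.00647, with 0.000986 to 0.98 over the alternatives) was 2.04 ± 0.47 without null 1, 1.45 with the visceral endoderm covariate and 0.92 ± 0.45 without the 5 libraries. *Jak2* was called by DESeq2 with and without null 1.

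STAT3 target genes were mostly detected at overlapping levels. Of 16 genes 14 were tested, 11 higher and 3 lower (median 0.15), with 1 higher at an unadjusted p under 0.05. Without null 1 15 were tested, 8 higher and 7 lower (median 0.0039), and without the 5 libraries also 8 and 7. *Socs3* was counted at 0 to 4.73 CPM in null and 0 to 6.76 CPM in WT epiblasts, with medians of 3.11 and 3.37. *Cish*, a second feedback inhibitor, was at 0 to 3.78 and 0 to 2.69 CPM. The log2 fold changes were -0.24 ± 0.80 and 0.14 ± 1.10, so that a 2-fold change of either gene in either direction was not detectable at this spread. *Socs2* had -0.52 ± 0.26, *Pim1*, a kinase gene, 0.47 ± 0.28 and *Tfcp2l1*, a naive pluripotency factor that LIF induces, 1.79 ± 0.67, the 1 gene at an unadjusted p under 0.05 (1.61 ± 0.68 without null 1). *Tfcp2l1* was 16.8 CPM at the median of null and 2.59 CPM of WT libraries, with WT 3 at 34.4 CPM.

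The promoters of *Socs3* and *Cish* are shown because both hold the STAT motif TTCNNNGAA, given in capitals. The motif reads the same on both strands. Each window runs from 250 bases before to 50 after the start of transcription in RefSeq on GRCm38.p6, at chr11:117969317-117969616 on the minus strand for *Socs3* and chr9:107296409-107296708 on the plus strand for *Cish*.
Socs3: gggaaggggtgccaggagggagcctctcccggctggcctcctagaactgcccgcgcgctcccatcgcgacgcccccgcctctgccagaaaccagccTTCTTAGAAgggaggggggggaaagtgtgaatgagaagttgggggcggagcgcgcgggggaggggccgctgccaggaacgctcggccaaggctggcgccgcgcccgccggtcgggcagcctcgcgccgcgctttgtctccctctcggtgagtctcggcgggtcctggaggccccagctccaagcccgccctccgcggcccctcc
Cish: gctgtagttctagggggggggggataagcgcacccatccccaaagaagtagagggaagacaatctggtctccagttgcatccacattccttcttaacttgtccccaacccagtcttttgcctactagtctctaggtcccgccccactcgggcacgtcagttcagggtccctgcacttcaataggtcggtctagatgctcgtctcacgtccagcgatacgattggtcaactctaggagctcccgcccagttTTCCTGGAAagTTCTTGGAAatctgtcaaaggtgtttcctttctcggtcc
The motif occurs 1 time in the first and 2 times in the second. It is found in 4 of the 14 target genes with a window, *Bcl6*, *Cish*, *Icam1* and *Socs3*, and in 8.3% of 32851 promoter windows (2726). A match describes the letters and not binding in these epiblasts.

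Pluripotency genes of the naive state were divided. Of 10 tested 6 were higher and 4 lower (median 0.46), where 8343 and 8752 of 17095 genes were. At an unadjusted p under 0.05, 4 were higher and 2 lower, where 4.76% and 3.51% of all genes were. Without null 1, 1 was higher and 2 lower at that level (median 0.41), where 3.93% and 3.5% were. Within replicates 4 and up 3 were higher and 2 lower (median 0.35), where 7.81% and 5.69% were. Without the 5 libraries 3 were higher and 1 lower (median 0.42), where 629 and 567 of 18574 genes were. *Esrrb*, a nuclear receptor of naive cells and extraembryonic ectoderm, reached 77.0 CPM in null 1 and 1.48 to 5.65 CPM in the other null libraries, against 0 to 4.96 CPM in WT epiblasts. *Zfp42* (Rex1) and *Klf5* had log2 fold changes of 2.17 ± 0.69 and 1.72 ± 0.64, and 1.20 ± 0.59 and 1.12 ± 0.58 without null 1. The core factors *Sox2* and *Nanog* had 0.05 ± 0.17 and -0.18 ± 0.44, and *Pou5f1* (Oct4) had -0.43 ± 0.18, or -0.14 ± 0.06 without the 5 libraries. Of 11 epiblast markers 9 were lower, 3 at an unadjusted p under 0.05, where 3.51% of all genes were. Of 7 primed genes 5 were lower and 2 higher (median -0.25), 3 lower at that level. Without null 1 4 primed genes were lower and 3 higher (median -0.14), again 3 lower at that level. The formative markers *Otx2* and *Pou3f1* had -0.26 ± 0.17 and -0.25 ± 0.12.

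Both de novo DNA methyltransferases, which the epiblast switches on at implantation, had lower values in null epiblasts. *Dnmt3b* was counted at 2585, 3497 and 4478 CPM in null and 3339, 4772 and 5881 CPM in WT epiblasts, and all 8 null libraries lay below the WT median. *Dnmt3a* was counted at 230, 324 and 418 CPM in null and 388, 406 and 502 CPM in WT epiblasts, with 7 null libraries below every WT library. Their log2 fold changes were -0.44 ± 0.11 and -0.43 ± 0.11 (edgeR adjusted p = 0.345 and 0.344), -0.39 ± 0.11 and -0.38 ± 0.10 without null 1, and -0.33 ± 0.10 and -0.33 ± 0.13 without the 5 libraries. In DESeq2 *Dnmt3a* had an adjusted p of 0.0478 (0.0297 to 0.943 over the alternatives), and *Dnmt3b* did not pass 0.05. Of 8 genes of DNA methylation 6 were lower and 2 higher (median -0.16). At an unadjusted p under 0.05, 3 were lower, or 2 without null 1. Of all genes 3.51% were lower at that level, and 3.5% without null 1. With the visceral endoderm covariate 4 were lower and 4 higher (median -0.0091), 3 lower at that level.

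The 13 genes that DESeq2 called with and without null 1 were *Stat3* and *Mmp25*, lower, and 11 higher genes. The higher genes were *Jak2*, *Aldh3a2*, *Eea1*, *Gng12*, *Rab6b*, *Stard8*, *Sox17*, *Sfmbt2*, *Rgma*, *Slc39a11* and *4933402E13Rik*. Without the 5 libraries, a fit of fewer embryos, DESeq2 called 35 genes, and of these 13 only *Stat3* was among them. *Aldh3a2*, a fatty aldehyde dehydrogenase, was counted at 10.6, 11.97 and 34.0 CPM in null and 3.56, 7.29 and 9.03 CPM in WT epiblasts. In the fit it had a log2 fold change of 1.19 ± 0.26 (edgeR adjusted p = 0.333, DESeq2 0.00638, with 0.000949 to 1.0 over the alternatives), 1.23 ± 0.27 without null 1, 0.97 with the visceral endoderm covariate and 0.87 ± 0.25 without the 5 libraries. It was the 1 gene with every null library above every WT library. *Aldh3a2* lies on the chromosome of *Stat3* (chr11:61223417-61267464), and the part of alleles linked to the null locus was not tested.

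*Eea1*, which tethers early endosomes, and *Gng12*, a G protein subunit, were highest in null 3, null 4, null 1 and null 8 among null libraries and in WT 3 among WT libraries. *Eea1* was counted at 9.78, 25.8 and 70.4 CPM in null and 5.90, 8.93 and 14.6 CPM in WT epiblasts. Its log2 fold change of 1.58 ± 0.34 was 1.51 ± 0.35 without null 1 and 0.50 ± 0.24 without the 5 libraries. *Gng12* had 1.58 ± 0.34, 1.57 ± 0.36 and 0.90 ± 0.25 in the same fits. *Stard8*, a protein with a lipid transfer domain, had 1.67 ± 0.39 in all libraries, 1.79 ± 0.38 without null 1 and 1.51 ± 0.40 without the 5. *Rab6b*, a GTPase of Golgi transport, had 1.26 ± 0.29 in all libraries and 0.83 ± 0.32 without the 5, and *Rgma*, a BMP co-receptor, 1.11 ± 0.30 and 0.77 ± 0.25. *Sox17*, an endoderm transcription factor on the visceral endoderm list, had 2.92 ± 0.78 and 1.92 ± 0.84. *Sfmbt2*, an imprinted gene of extraembryonic lineages, was at 658 CPM in null 1, and its log2 fold change went from 3.25 ± 0.78 to 1.88 ± 0.48 without that library.

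Of 13 imprinted genes of growth control 10 were higher and 3 lower in null epiblasts (median 0.28), and 5 were higher at an unadjusted p under 0.05, where 4.76% of all genes were. Without null 1 the counts were also 10, 3 and 5 (median 0.19), the last where 3.93% of all genes were. With the visceral endoderm covariate 7 were higher and 6 lower (median 0.03), 5 higher and 1 lower at that level. *Igf2*, the growth factor, was counted at 19.6, 99.98 and 699 CPM in null and 7.47, 16.02 and 98.9 CPM in WT epiblasts. Its highest value was in null 1, and the highest WT value was in WT 3. The log2 fold change of 2.56 ± 0.69 was 1.73 ± 0.56 without null 1 and 1.51 ± 0.47 without the 5 libraries. *H19*, its neighbouring noncoding RNA, *Peg10* and *Peg3* had 1.97 ± 0.60, 2.04 ± 0.71 and 0.82 ± 0.31 over all libraries, 1.67 ± 0.59, 1.52 ± 0.67 and 0.85 ± 0.33 without null 1, and 1.28 ± 0.44, 1.30 ± 0.45 and 0.54 ± 0.16 without the 5. All 8 null libraries lay above the WT median for each of these 4 genes.

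Of the genes with the smallest p and a log2 fold change under -1, *Soga3* had -1.01 ± 0.23 (-0.92 ± 0.23 without null 1), with 7 of 8 null libraries below every WT library. *Pde2a*, a cyclic nucleotide phosphodiesterase, had -2.09 ± 0.64 (-2.07 ± 0.68 without null 1), at 0 to 5.47 CPM in null and 4.90 to 20.2 CPM in WT epiblasts, also with 7 of 8 null libraries below every WT library. *Slit3*, a guidance ligand, had -1.86 ± 0.58 and *Ogg1*, a DNA repair glycosylase, -1.17 ± 0.38. *Fgf3*, the neighbour of *Fgf4* on chromosome 7, was detected in 1 null library (0.412 CPM) and reached at most 4.58 CPM in WT epiblasts. *Rbmxl2* had -1.22 ± 0.37, and *Snora30* lay at or under 0.314 CPM in all null libraries.

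Beyond *Id1*, *Axin2* and *Igdcc3*, the 16 genes called within replicates 4 and up included *Akap2*, *En1*, *Phyh* and *Prob1*. *Akap2*, an anchor of protein kinase A, was at 28.8 to 49.7 CPM in null 4 to null 8 and 10.1 to 17.3 CPM in WT 4 to WT 9 (log2 fold change 1.59 ± 0.17, edgeR adjusted p = 0.00252, with 3.15e-07 to 1.0 over the alternatives). In WT 3 it was 60.6 CPM, the highest of all. *En1*, a homeobox gene of the later brain, was at 0.721 to 4.03 CPM in all 8 null libraries, at 5.01 CPM in WT 3 and at 0 in the other 8 WT libraries, where 3 counts correspond to 0.0423 to 0.104 CPM. *Phyh*, a peroxisomal hydroxylase, and *Plekhf2*, an endosomal protein, were likewise highest among WT libraries in WT 3, at 31.4 and 105 CPM. When null 1 and WT 3 were both left out, edgeR called *Akap2*, *En1*, *Phyh* and *Plekhf2*. *Akap2*, *En1*, *Phyh*, *Plekhf2* and *Prob1*, and the non-overlapping genes outside the lists, were named after their values were seen.

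The difference between genotypes was then compared with that at E7.5, measured in 3 null and 9 WT epiblasts. The interaction of genotype with stage was tested over the 29 libraries of both stages. Of 22122 genes, 41 had a null minus WT difference that was higher at E7.5 (0.185%) and 57 one that was lower (0.258%) than at E6.5. The first included 4 of the 16 FGF and ERK genes, *Spry2*, *Spry4*, *Dusp6* and *Etv5*, all lower in null at E6.5 and higher at E7.5. *Spry4* had medians of 56.2 CPM in null and 94.8 in WT epiblasts at E6.5, and of 72.2 and 27.3 CPM at E7.5, on 1 scale for all stages. *Dusp6* had medians of 65.6 and 94.2 CPM at E6.5 and of 94.8 and 37.5 CPM at E7.5. Between the stages the WT median of both genes was lower at E7.5 and the null median higher.

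The interaction was 1.83 for *Spry4*, 1.69 for *Dusp6*, 1.68 for *Spry2* and 1.57 for *Etv5* on the log2 scale (edgeR adjusted p = 0.0302, 0.00841, 0.0199 and 0.0441, at most 0.522 over the alternatives). Each was called in 5 of 6 fits, among them the fit without E6.5 null 1, the exception being the fit of all 35 epiblast libraries. *Dnmt3a* (1.29), *Tgif1* (1.11), *Rps6ka2* (1.08), *Soga3* (1.41), *Prob1* (1.86) and *Socs2* (1.88) were called in the same direction. *Socs2* had 52.9 and 71.6 CPM in null and WT epiblasts at E6.5 and 71.1 and 22.9 CPM at E7.5.

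In the other direction *Jak2* had an interaction of -3.72, with 10.1 and 3.14 CPM at the median of null and WT epiblasts at E6.5 and 3.13 and 9.88 CPM at E7.5. *Stard8* (-5.32), *Eea1* (-3.42), *Rgma* (-3.18), *Gng12* (-2.71), *Akap2* (-2.88) and *Aldh3a2* (-1.72) had the same pattern, as did the imprinted genes *Igf2* (-6.84), *H19* (-5.10) and *Peg3* (-2.42). The 17 visceral endoderm markers had a median interaction of -4.90 and the 12 extraembryonic ectoderm markers one of -4.35, none of them called, against -0.01 over all genes. Their part in these results was not tested. *Lef1* (0.87) and *Axin2* (-0.16) were not called, and the difference at E7.5 was -0.02 ± 0.15 for *Lef1*.

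**Figure D5:**
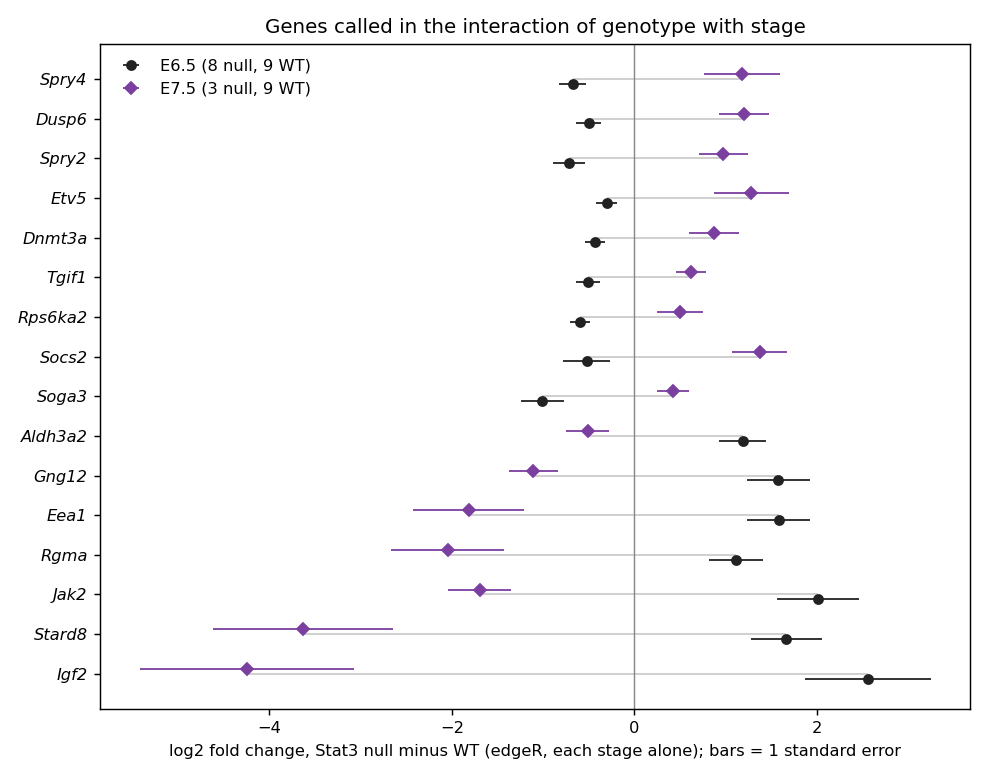
Log2 fold changes (null minus WT) of 16 genes called in the interaction, at E6.5 (black circles, 8 null and 9 WT) and at E7.5 (purple diamonds, 3 null and 9 WT). Each stage was fitted alone with edgeR, and bars are 1 standard error. *Spry4*, *Dusp6*, *Spry2* and *Etv5* lie below 0 at E6.5 and above 0 at E7.5, and *Jak2*, *Stard8* and *Igf2* the other way round.

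The lists of growth and metabolism genes showed small differences at E6.5, and in several the direction turned with the libraries compared. No list was made of histone genes. Several of them were lower in null epiblasts at an unadjusted p under 0.05, and how histone genes went as a group was not worked out. Counts at an unadjusted p under 0.05 in all 17 libraries stand against 3.51% of all genes lower and 4.76% higher at that level. Without null 1 these shares were 3.5% and 3.93%, and within replicates 4 and up 5.69% and 7.81%. Without the 5 libraries 567 of 18574 genes were lower and 629 higher. Of 17 proliferation genes 13 were lower and 4 higher (median -0.08), 1 lower at that level. Without null 1 15 were lower and 2 higher, and without the 5 libraries 8 were lower and 9 higher (median 0.0019). Of 13 proteins encoded by mitochondrial DNA 12 were higher and 1 lower (median 0.07), none at that level. All 13 were higher within replicates 4 and up, 7 at that level, whereas 12 were lower within replicates 1 to 3 (median -0.16) and all 13 with the visceral endoderm covariate (median -0.08).

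Of 27 nuclear genes of oxidative phosphorylation 18 were lower and 9 higher (median -0.05), and of 16 glycolysis genes 12 were lower and 4 higher (median -0.13), in each case with 2 lower and 1 higher at an unadjusted p under 0.05. Without null 1 these were 20 and 7 (median -0.08), and 15 and 1 (median -0.20) with 5 glycolysis genes lower at that level. Of 14 p53 targets and regulators 9 were lower and 5 higher (median -0.13), 2 and 1 at that level, with 9 and 5 also without null 1. Within replicates 4 and up, and without the 5 libraries, 5 were lower and 9 higher (medians 0.11 and 0.09).

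Of 13 genes tested of nascent mesoderm and endoderm 9 were lower and 4 higher (median -0.10), 1 in each direction at an unadjusted p under 0.05. Without null 1 7 were lower and 7 higher. In replicates 4 and up 12 were lower and 3 higher (median -1.12), 5 lower at that level, and within replicates 1 to 3 2 were lower and 11 higher (median 1.23). Of 11 genes of anterior epiblast and neural plate 10 were lower and 1 higher (median -0.25), 1 lower at that level, and without null 1 9 were lower and 2 higher. In replicates 4 and up alone 5 were lower and 6 higher (median 0.01).

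The neuroectoderm list had 4 genes tested, 3 higher, 2 of them at an unadjusted p under 0.05, and these were *Igf2* and *Sox21*, which is also an extraembryonic ectoderm marker (32.0 CPM in null 1, 0.212 to 5.43 CPM in the other null and at most 0.575 CPM in WT libraries). Of 12 claudins and adhesion genes 6 were lower and 6 higher, 1 lower at that level. Without null 1 8 were lower and 4 higher (median -0.06), and without the 5 libraries 11 were lower and 1 higher (median -0.18), 3 lower at that level.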

How the data were processed

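RNA-seq of single epiblasts at E6.5 (8 *Stat3* null, 9 WT) was analysed from a deposited table of 47643 genes. Its values were estimated counts, which the authors made with Trim Galore, HISAT2 and StringTie on GRCm38, per the submitters' processing notes; their versions, the annotation and the strand setting used for counting are not given in the sources used here. Without a strand setting, reads of overlapping and antisense genes, and of near-identical copies, may be shared. The values were whole numbers and went unnormalized into edgeR 4.0.16 (R 4.3.3): filterByExpr with a minimum count of 10, TMM factors, robust quasi-likelihood test, Benjamini-Hochberg adjustment. Calls needed an adjusted p under 0.05 together with a difference of more than 1 on the log2 scale, and an SE was the fold change over the square root of F. DESeq2 1.42.0, limma 3.58.1 (voom with sample weights), other filters and scalings, and fits without single libraries were alternatives. The 4 alternatives that leave out libraries with extraembryonic markers or add a marker covariate were chosen after seeing the data.

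Positions came from GENCODE M21, to which 47224 genes matched. The members and the gene lists were chosen with earlier results of these data known. The genes named were *Stat3*, list members, the 10 higher and 10 lower genes with the smallest p past a log2 fold change of 1 among symbols listed 1 time and not of the Gm, Rik or numbered clone kind, and genes called by DESeq2 with and without null 1; others are marked as chosen after their values were seen. Each embryo gave 1 library and the labels give no litters, so p-values measure the spread between single embryos. Principal components used rlog values of DESeq2, whose last digits depend on the linear algebra settings, so that 1 thread was used. Some list members are not reported here. The scripts were tested on counts simulated from these libraries, with 100 genes changed 4-fold and 100 changed 2.5-fold. edgeR called 62 and 44 of them with 1 false call, and DESeq2 75 and 53 with 28 false calls. Voom called 62 and 40 with 3 false calls, and the edgeR interaction test 34 and 23 with 1.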

Additional observations from a re-analysis of the deposited data

Results flagged for a closer look

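A library was set apart where its gap to the nearest of its group, divided by the range of the group on log2 CPM, passed Dixon's critical value. Of 170 groups tested 30 passed. Chance flags about 1 in 20 groups chosen beforehand. That rate cannot be set against this count, because some of the genes were named after their values were seen. Null 1 lay apart at the low end for *Fgf5* (0.865 of the range), *Mixl1* (0.725), *Wnt3* (0.647), *Akap2* (0.647), *Phyh* (0.642), *Otx2* (0.594), *Etv5* (0.582) and *Id1* (0.569). It lay apart at the high end for *Fgfr2* (0.718), *Esrrb* (0.665), the sum of extraembryonic ectoderm markers (0.690) and the score on the second principal component (0.528), the last so near the critical value that the thread setting of the linear algebra library moved it across. That null 1 carries extraembryonic ectoderm transcripts was known beforehand, so its flags on this sum and this component are description only. Null 2 was the lowest for *Dusp4* (0.649) and *Pou3f1* (0.619) and the highest for *Prob1* (0.606) and *Axin2* (0.565). Null 3 was the lowest for *Igdcc3* (0.855) and *Socs3* (0.784) and the highest for *Aldh3a2* (0.573), and null 7 was the 1 null library with *Fgf3* (1.0).

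Among WT libraries WT 3 was the highest for *En1* (1.0), *Plekhf2* (0.734), *Peg3* (0.610), *Phyh* (0.594), *Akap2* (0.530) and *Spry4* (0.522), and the lowest for *Zic2* (0.806) and *Pou5f1* (0.574). WT 1 was the lowest for *Socs3* (0.766) and *Fgfr2* (0.660). WT 3 and null 3 had the highest visceral endoderm sums of their genotypes, and null 1 the highest extraembryonic ectoderm sum; the part of these tissues in the values was not tested.

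For 20 of the genes checked for flags the difference between null and WT epiblasts itself differed between E6.5 and E7.5. The interaction test in edgeR, over 29 libraries with Benjamini-Hochberg adjustment, called 98 genes in all. Some of the 20 were named for their E6.5 values, which also enter the interaction. The difference was higher at E7.5, on the log2 scale, by 1.88 for *Socs2*, 1.86 for *Prob1*, 1.83 for *Spry4*, 1.69 for *Dusp6*, 1.68 for *Spry2*, 1.57 for *Etv5*, 1.41 for *Soga3*, 1.29 for *Dnmt3a*, 1.11 for *Tgif1* and 1.08 for *Rps6ka2*. The interaction was -6.84 for *Igf2*, -5.32 for *Stard8*, -5.10 for *H19*, -3.72 for *Jak2*, -3.42 for *Eea1*, -3.18 for *Rgma*, -2.88 for *Akap2*, -2.71 for *Gng12*, -2.42 for *Peg3* and -1.72 for *Aldh3a2*. Each was called in 5 of 6 fits except *H19*, called in 4, and none was called with all 35 epiblast libraries in 1 fit. The E7.5 side rests on 3 null epiblasts.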

How the results depend on the processing

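The number of genes called between null and WT E6.5 epiblasts depended on the tool and on single libraries. edgeR called 0 of 17095, and 0 also with RLE factors, without a filter on low counts, with a mean count of at least 50, without genes over 1% of counts, without the robust option, with all 35 epiblast libraries, with depth or Y chromosome genes as a term, within replicates 1 to 3, and, chosen after seeing the data, without the 5 libraries with the highest extraembryonic sums or with the visceral endoderm covariate. It called 16 within replicates 4 and up and 4 without null 1 and WT 3. Leaving out 1 library at a time gave 0 to 2 calls (1 without null 3, *Igdcc3*, and 2 without WT 3, *En1* and *Plekhf2*). Voom with sample quality weights called 92. DESeq2 called 28, 32 without null 1 and, chosen after seeing the data, 212 without null 1 and WT 3 and 35 without the 5 libraries. The cause was not tested.

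The replicate numbers do not mark litters or days in the labels. With the replicate number as a block edgeR called 0 genes, and 1353 had an unadjusted p under 0.05. For the 8 pairs of null and WT libraries with 1 number, a separate correlation measure gave 0.0165 to 0.183 (median 0.0974), 3 of them over 0.1. These values are not on the scale of the correlation over the 500 most variable genes, which was at least 0.491 for every pair of the 17 libraries. Of 16 libraries, 8 correlated best with their own number. The count expected by chance was not worked out, so whether libraries with the same number are more alike was not tested.

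The interaction with stage gave 98 calls, 636 with DESeq2, 8 with all 35 libraries, and 122 to 482 when 1 library was left out (122 without E6.5 null 1, 466 without E6.5 WT 3, 482 without E7.5 WT 3). The *Stat3* difference was -1.82 to -1.47 when 1 library was left out, and -2.0 within replicates 1 to 3, where 3 against 3 cannot pass 0.05. The first component held 24.4% of the variance on log2 CPM and 49.9% without null 1. The share of *Gm26917* was lower in null by 1.61 percentage points within replicates 4 and up (-1.61, exact permutation adjusted p = 0.0390), and ranged from -1.37 (without null 2, adjusted p = 0.0351) to -0.875 when 1 library was left out, and the mitochondrial share was higher by 0.446 within those replicates (exact permutation adjusted p = 0.0390).

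Over 75 named genes and 36 settings, 2476 of 2678 log2 fold changes kept their direction and their side of the threshold, and in 139 a gene passed the threshold that it missed in the first result. The other 63, in 19 genes, turned direction, none of them with an adjusted p under 0.05. Within replicates 1 to 3 these were *T* (4.66), *Eomes* (1.70), *Nanog* (1.01), *Fgf8* (0.89), *Snai1* (0.56), *Axin2* (0.54), *Mixl1* (0.23), *Prob1* (0.056), *Sox2* (-0.064), *Akap2* (-0.14) and *Id1* (-0.35). Within replicates 4 and up they were *Socs3* (0.12), *Fgf5* (0.085), *Fgf4* (0.028), *Jak1* (-0.046) and *Wnt3* (-0.93), and under voom *Socs3* (0.11), *Fgf4* (0.033), *Fgf5* (0.00012), *Jak1* (-0.053), *Nodal* (-0.097), *Cish* (-0.17) and *Wnt3* (-1.15). With the visceral endoderm covariate they were *Wnt8a* (1.57), *T* (1.46), *Nanog* (0.37), *Eomes* (0.32) and *Fgf8* (0.32). Without the 5 libraries they were *Nanog* (0.36 in edgeR, 0.38 in DESeq2), *Fgf8* (0.30 and 0.32), *Fgf5* (0.072 and 0.076) and *Cish* (-0.90 and -0.91). Without null 1 and WT 3 they were *Fgf5* (0.15 and 0.16), *Fgf8* (0.058 and 0.070) and *Cish* (-0.030 and -0.032). DESeq2 without null 1 gave 0.14 for *Fgf5* and 0.13 for *Fgf8*, the replicate block -0.22 for *Cish* and -0.33 for *Wnt3*, the depth term 0.0097 for *Fgf8* and the Y covariate -0.11 for *Wnt3*. Leaving out 1 library at a time gave -0.36 to 0.41 for *Cish*, -0.085 to 0.13 for *Fgf5*, -0.57 to 0.12 for *Fgf8*, -0.43 to 0.54 for *Wnt3* and -0.036 to 0.15 for *Sox2*. Depth limited genes near 0, such as *Socs3*, *Cish* and *Fgf3*, where 3 counts correspond to 0.0380 to 0.107 CPM.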

Other observations

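Members of other lists that lay apart by genotype at an unadjusted p under 0.05, without a call, were spread over several functions. *Aurkb*, a mitotic kinase, was counted at 48.2, 59.0 and 66.6 CPM (lowest, median and highest) in null and 62.5, 70.7 and 96.6 CPM in WT epiblasts. *Zmat3*, a p53 target, was counted at 34.6, 55.4 and 66.1 CPM in null and 62.3, 66.0 and 74.8 CPM in WT epiblasts, with 7 of 8 null libraries below every WT library. The log2 fold changes were -0.31 ± 0.10 and -0.32 ± 0.10 (edgeR adjusted p = 0.420 and 0.424, with 0.0535 to 1.0 and 0.0859 to 1.0 over the alternatives), and -0.33 ± 0.10 and -0.31 ± 0.11 without null 1. *Slc2a3*, a glucose transporter, had 0.91 ± 0.40 and 0.80 ± 0.42 in the same fits, with the highest WT value at 832 CPM. *Furin*, the protease that processes Nodal, had 0.53 ± 0.20 and 0.40 ± 0.19, and all 8 null libraries lay above the WT median of 44.3 CPM.

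Transcripts of the Y chromosome were present in 4 of 8 null and 4 of 9 WT libraries.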
